A study of Saccharomyces cerevisiae S288C with 72 samples.

Results

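The cytosolic ribosome of budding yeast, Saccharomyces cerevisiae, is built on ribosomal RNA from proteins of a large (60S) and a small (40S) subunit, and most of these proteins are encoded by a pair of genes, an A and a B copy left from a whole-genome duplication. The genes described here were all entries of the expression table named RPL or RPS, a number and an optional A or B, which gave 132 of 5803 entries. Of these, 76 encode large-subunit and 56 small-subunit proteins. They form 75 families, 57 with an A and a B copy and 18 with a single gene. All 132 matched an annotated gene of the reference and all 132 passed the minimum mean level for testing. The members were chosen by name, with no use of their values.

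In growing yeast, ribosomal protein genes are among the most strongly transcribed of all genes, and their transcription follows nutrient supply through the TORC1 and protein kinase A pathways. Rap1 binds most of their promoters, with Fhl1 and its coactivator Ifh1, and Crf1 can take the place of Ifh1 when growth slows. When glucose runs out at the diauxic shift, yeast changes from fermentation to respiration of the ethanol it has made, and growth and the making of ribosomes slow down. A respiratory chain is needed for that second phase.

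RNA-seq was performed on 3 strains of an S288C background. These were wild type, a strain labelled nde1Δ nde2Δ ndi1Δ, which lacks the external and internal NADH dehydrogenases of mitochondria and is called the NADH dehydrogenase mutant here, and a strain labelled cox4Δ, without a subunit of cytochrome c oxidase, the last complex of the respiratory chain. All grew at 30 °C in YNB medium with ammonium and 2% glucose in baffled flasks. Each strain was sampled at 24 times from 0 to 58 h with 1 library per time, 72 in all, and no replicate culture is stated. Times were grouped into an early window (0 to 8 h, 7 libraries per strain), a middle window (9 to 16 h, 8 libraries) and a late window (18 to 58 h, 9 libraries).

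The deposited values are TPM, a relative transcript abundance corrected for gene length, rescaled here to a common total over 5780 nuclear protein-coding genes, so every level is relative to the other messages of its library. Less ribosomal protein mRNA per cell and more of other mRNAs cannot be told apart, and sequencing depth is unknown. The deleted genes matched the labels: NDE1 lay between 0.170 and 3.22 TPM in the NADH dehydrogenase mutant and between 104 and 1391 TPM in wild type, and COX4 between 0.396 and 5.21 TPM in the cox4Δ mutant and between 321 and 1554 TPM in wild type. Late libraries of the mutants were more uneven than those of wild type. The 10 most abundant genes held 24.5% to 35.7% of the late cox4Δ libraries, 24.1% to 31.5% of the late NADH dehydrogenase mutant libraries and 14.5% to 19.3% of the late wild-type libraries. Library labels start with a letter and a number, read here as row and column of a plate, which the labels do not name. No row holds more than 1 strain, and all strains pass to a second row after the 13 h sample, so row, strain and time cannot be told apart.

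Copies of a pair are alike enough that sequencing reads can be hard to assign, so their coding sequences are shown first for 3 pairs that the results turn on. Coding identity between copies ran from 79.1% in RPL22 to 99.4% in RPL1, 8 pairs reached 98%, and 21 pairs encode the same protein. RPL41A and RPL41B, the shortest and on average the highest of the members, differ at 1 of 78 coding bases. RPL15A and RPL15B differ at 42 of 615 bases, 6 of them in the first 120, and RPS26A and RPS26B at 28 of 360, again 6 in the first 120. The lines give the coding strand from the start codon, read from the RefSeq genome R64 (sacCer3), with capitals where the copies differ. The places are RPL41A at chrIV:130407-130484 on the minus strand, RPL41B at chrIV:221724-221801 on the minus strand, RPL15A at chrXII:202471-202590 on the minus strand, RPL15B at chrXIII:510229-510348 on the minus strand, RPS26A at chrVII:148469-148588 on the minus strand and RPS26B at chrV:423952-424071 on the plus strand.
RPL41A: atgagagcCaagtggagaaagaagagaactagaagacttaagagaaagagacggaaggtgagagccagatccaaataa
RPL41B: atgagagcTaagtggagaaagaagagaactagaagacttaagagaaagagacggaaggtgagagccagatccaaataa
RPL15A: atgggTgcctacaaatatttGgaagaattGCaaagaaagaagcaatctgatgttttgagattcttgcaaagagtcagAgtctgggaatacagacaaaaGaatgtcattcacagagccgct
RPL15B: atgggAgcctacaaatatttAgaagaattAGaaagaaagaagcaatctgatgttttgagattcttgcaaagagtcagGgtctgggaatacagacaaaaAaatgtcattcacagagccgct
RPS26A: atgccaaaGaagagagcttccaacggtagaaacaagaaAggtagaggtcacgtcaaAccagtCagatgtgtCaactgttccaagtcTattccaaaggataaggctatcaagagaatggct
RPS26B: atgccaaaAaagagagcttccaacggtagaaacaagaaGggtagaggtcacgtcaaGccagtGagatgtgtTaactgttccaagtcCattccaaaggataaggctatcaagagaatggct

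Ribosomal protein messages held their highest share of all nuclear protein-coding messages at the start of each course and their lowest share in the middle window. In wild type the 132 genes summed to 35.0% at 0 h, 32.7% at 6 h and 13.3% at 8 h, and reached their lowest value, 5.08%, at 16 h, 6.89-fold under the start. In the NADH dehydrogenase mutant the sum went from 28.8% at 0 h to 1.81% at 13 h, a 15.9-fold difference. In the cox4Δ mutant it went from 37.6% at 0 h to 2.34% at 15 h, a 16.0-fold difference. The lowest point thus lay lower in both mutants than in wild type. Its time rests on 1 library in each strain, and neighbouring values lay close. The cox4Δ mutant had 2.54% at 14 h and 2.58% at 16 h, and wild type 5.59% at 14 h and 5.48% at 20 h. An earlier lowest point is therefore not shown for the cox4Δ mutant.

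The steepest single step was also larger in the mutants. The sum went from 5.45% to 1.81% between 12 and 13 h in the NADH dehydrogenase mutant, 3.01-fold, and from 9.49% to 2.54% between 13 and 14 h in the cox4Δ mutant, 3.74-fold. In wild type the steepest step, from 9.73% at 13 h to 5.59% at 14 h, was 1.74-fold, and the sum was 7.22% at 15 h. Without the RPL41 pair that wild-type step went from 8.18% to 5.15%. The step from 6 to 7 h, from 28.6% to 18.1%, was then of nearly equal fold. Across the step of the NADH dehydrogenase mutant 130 of 132 members were at least 2-fold lower, against 22.7% of all genes tested, and across that of the cox4Δ mutant 131 of 132 were, against 21.3%. In wild type 20 of 132 were, against 2.39%. The steps of wild type and of the cox4Δ mutant fall on the change of the row read from the labels. That of the NADH dehydrogenase mutant does not. Each step compares a pair of libraries and has no test.

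After the lowest point all 132 members were higher again at 58 h in each strain, and by at least 2-fold in 96 of 132 in wild type, 124 in the NADH dehydrogenase mutant and 118 in the cox4Δ mutant, against 13.8%, 14.9% and 20.4% of all genes tested. The sum at 58 h was 12.1% in wild type, 7.28% in the NADH dehydrogenase mutant and 6.32% in the cox4Δ mutant, 2.39-fold, 4.02-fold and 2.70-fold over the lowest point. None of the 3 strains came back to its early range. Over the late window the sum was 8.03% ± 2.27 (SD, n = 9) in wild type, 4.99% ± 1.65 in the NADH dehydrogenase mutant and 5.65% ± 2.39 in the cox4Δ mutant, and the ranges of the 3 strains overlapped. Without the RPL41 pair, which alone held up to 6.00% of a cox4Δ library, each window mean moved by less than 1 SD. A sum over the members is given as a description, with no test.

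**Figure D1:**
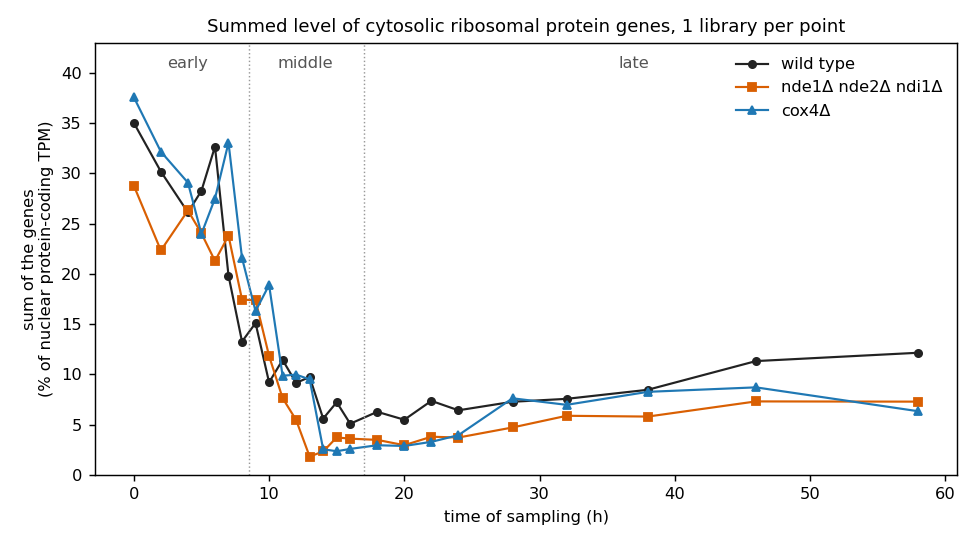
Sum of the 132 ribosomal protein genes as a percentage of nuclear protein-coding TPM (y axis) against time of sampling in h (x axis), 1 library per point, with dotted lines between the windows. All 3 strains start between 28.8% and 37.6%; the mutants reach 1.81% and 2.34%, wild type 5.08%, and all are higher again at 58 h.

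The balance of the subunits moved by little next to the fall itself. The ratio of summed large- to small-subunit messages, over RPL and RPS genes, was 1.33 ± 0.05 (SD, n = 7) early and 1.46 ± 0.06 (n = 9) late in wild type, 1.30 ± 0.06 and 1.26 ± 0.05 in the NADH dehydrogenase mutant, and 1.38 ± 0.08 and 1.27 ± 0.09 in the cox4Δ mutant. Without RPL41 these ratios were 1.11 ± 0.02 and 1.09 ± 0.03 in wild type, 1.11 ± 0.02 and 1.02 ± 0.01 in the NADH dehydrogenase mutant, and 1.12 ± 0.02 and 1.01 ± 0.03 in the cox4Δ mutant. The higher late ratio of wild type was thus not seen without that pair. In both mutants the ratio without RPL41 was lower late than early with no overlap, with a lowest early value of 1.07 and a highest late value of 1.04 in the NADH dehydrogenase mutant, and of 1.096 and 1.05 in the cox4Δ mutant. In wild type these ranges overlapped. The ratios are given with no test.

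Nearly every member fell in wild type between the early window and the late window. A gene was called when its adjusted p in limma, over all genes tested, was under 0.05 and the difference at least 2-fold on log2(rescaled TPM + 1). Of 132 members 125 were lower and 0 higher, and 14.7% of all 5721 genes tested were called lower. The median of the members was -1.77 and that of all genes 0.05 (log2). In the middle window 126 of 132 members were already lower, with 11% of all genes called lower. The 76 large-subunit genes had a median of -1.77 and the 56 small-subunit genes one of -1.78. Members with an intron in the coding region (88) and without (44) also lay close, at -1.78 and -1.75.

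Nearly every member fell in the mutants as well, and on the TPM scale the medians were lower than in wild type. For the NADH dehydrogenase mutant 131 of 132 members were lower in the late window, with a median of -2.41, where 40% of all genes were called lower. The middle window gave 131 of 132 against 27.8% of all genes. In the cox4Δ mutant 131 of 132 were lower in the late window, with a median of -2.49, against 34.3% of all genes, and 130 of 132 in the middle window, against 18.2%. The median of all genes was -0.71 in the NADH dehydrogenase mutant and -0.54 in the cox4Δ mutant. Under median-of-ratios scaling, which centres the typical gene, the late medians of the members were -1.81 in wild type, -1.66 in the NADH dehydrogenase mutant and -1.91 in the cox4Δ mutant, so the order of wild type and the NADH dehydrogenase mutant turned with the scaling. The counts lower were then 126, 123 and 129 of 132. On the TPM scale the member not called lower late in the course was RPL15B for the NADH dehydrogenase mutant (-0.86) and RPS22B for the cox4Δ mutant (-0.91).

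The 7 members not called lower in wild type were all B copies, while all 57 A copies and all 18 single genes fell. They were RPL15B at 0.25, RPS14B at -0.53, RPL14B at -0.73, RPL41B at -0.82, RPL4B at -0.85, RPL7B at -0.92 and RPS25B at -0.97 (log2). RPL15 is a protein of the large subunit, and RPL15B had the lowest mean level of all members, 49.1 rescaled TPM. RPL15B lay at 44.4, 51.8 and 62.8 rescaled TPM (lowest, median, highest) in the early and at 51.3, 64.6 and 77.5 in the late window of wild type, so the windows overlapped (limma adjusted p = 0.399, SE 0.26). On the TPM scale late libraries of the NADH dehydrogenase mutant had between 19.2 and 42.9. Those of the cox4Δ mutant had between 14.2 and 38.9, and both lay under every late wild-type library. Under median-of-ratios scaling RPL15B was not called lower than in late wild type in either mutant.

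The members that fell most in wild type included genes of both subunits. RPL9A, for a large-subunit protein at the base of the stalk, went from 273, 920 and 1352 rescaled TPM early to 69.4, 85.5 and 131 late, and the windows did not overlap. Its log2 change was -3.08 (SE 0.42, limma adjusted p = 2.8e-09). RPS22A, for a small-subunit protein, went from 1162, 2774 and 3758 to 137, 314 and 575, a change of -3.06 (SE 0.48, adjusted p = 1.3e-07), also without overlap.

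The next were RPS26B at -2.66, RPL26B at -2.58, RPS31 at -2.50, RPL22A at -2.47, RPL39 at -2.42, RPL15A at -2.41, RPS12 at -2.36 and RPL14A at -2.33. RPS31 encodes a small-subunit protein made as a fusion with ubiquitin. RPL39, one of the smallest large-subunit proteins, lines the exit tunnel. Its gene has 156 coding bases, and how well TPM hold for so short a gene was not tested. RPL39 was the member with the deepest fall in both mutants, -3.26 in the NADH dehydrogenase mutant and -3.96 in the cox4Δ mutant. RPL39 went from 2717, 9675 and 14530 rescaled TPM early to 1056, 1516 and 3131 late in wild type, where the windows overlapped, and from 5153, 11072 and 20606 to 389, 749 and 1190 in the cox4Δ mutant, where they did not. The members that fell least among those called in wild type were RPL19A, RPS25A and RPL9B, at -1.09, -1.09 and -1.10.

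**Figure D2:**
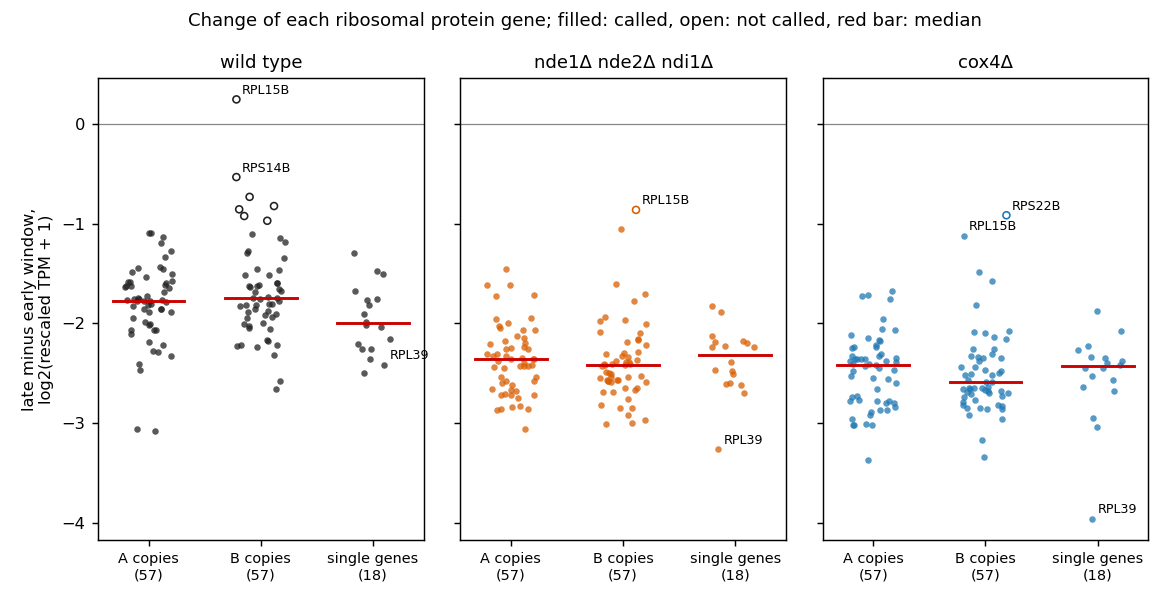
Change of each member from the early to the late window on log2(rescaled TPM + 1) (y axis) for A copies, B copies and single genes (x axis) in each strain; filled points were called, open points were not, and red bars are medians. The 7 open points of wild type are B copies, with RPL15B above 0.

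When the copies of a pair were added, no family stood above its early level. Over 75 families the change in wild type had a median of -1.78 and an SD of 0.33, from RPS22 at -2.73 and RPS31 at -2.50 to RPL41 at -1.07 and RPS25 at -1.06. RPS25 is a small-subunit protein that some viral messages need for initiation. The median in the NADH dehydrogenase mutant was -2.34, from RPL39 at -3.26 to RPS14 at -1.73, and in the cox4Δ mutant it was -2.45, from RPL39 at -3.96 to RPS14 at -1.71. Families are described with no test.

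Between strains, no member was called in the early window. With limma 0 of 132 members were called for either mutant, and 0 had an unadjusted p under 0.05. Of all genes 0.245% were called in either direction for the NADH dehydrogenase mutant and 0.769% for the cox4Δ mutant. The fit pools 1 spread per gene over all windows, the steep middle window included, so equal early levels are not shown. The early sums had means of 26.5% in wild type, 23.4% in the NADH dehydrogenase mutant and 29.3% in the cox4Δ mutant. Both comparisons share the wild-type libraries. In the middle window 17 of 132 members were lower in the NADH dehydrogenase mutant, where 3.67% of all genes were lower, and 0 of 132 were called in the cox4Δ mutant, where 2.83% of all genes were called in either direction and 45 members had an unadjusted p under 0.05. The 17 fell to 0 without the libraries of 13 and 14 h, which hold the lowest values of that mutant, and to 0 under median-of-ratios scaling.

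In the late window some members were lower in the mutants than in wild type, and how many were called turned on the scaling. On the TPM scale 26 of 132 members were lower and 0 higher in the NADH dehydrogenase mutant, with 29.4% of all genes called lower and medians of -0.68 for members and -0.65 for all genes. In the cox4Δ mutant 12 were lower and 0 higher, with 26.3% of all genes called lower and medians of -0.56 and -0.61. Median-of-ratios scaling left 1 member lower and 2 higher in the NADH dehydrogenase mutant, with 6.68% and 9.25% of all genes, and 2 lower and 2 higher in the cox4Δ mutant, with 6.73% and 8.08%. The members' medians were then 0.04 and 0.10.

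RPL41B and RPL4B lay lowest in both mutants. RPL41B, for a very short basic protein of the large subunit, had 4544, 6581 and 12942 rescaled TPM in the late window of wild type, 813, 1631 and 2210 in the NADH dehydrogenase mutant and 1094, 1500 and 2305 in the cox4Δ mutant, so neither mutant overlapped wild type. The differences were -2.32 and -2.25 (SE 0.28 for each, limma adjusted p = 3.8e-10 and 9.3e-10). RPL4B, for a large-subunit protein that reaches into the exit tunnel, had 455, 677 and 980 rescaled TPM in wild type, 165, 213 and 253 in the NADH dehydrogenase mutant and 137, 192 and 306 in the cox4Δ mutant, also without overlap. Its differences were -1.66 and -1.71 (SE 0.21, adjusted p = 2.1e-09 and 1.1e-09). RPL41B was lower by median of ratios too in both mutants, and RPL4B only in the cox4Δ mutant, at -0.94 in the NADH dehydrogenase mutant. RPL41B has 78 coding bases, and its level swung between neighbouring libraries of wild type. It was 11631 rescaled TPM at 9 h, 4075 at 10 h and 10095 at 11 h. How well TPM hold for so short a gene was not tested.

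Further members lower in both mutants were RPS30B (-1.65 and -1.25), RPS25B (-1.38 and -1.24), RPL39 (-1.35 and -1.22), RPS14B (-1.28 and -1.35) and RPL19A (-1.17 and -1.10), where the first value is that of the NADH dehydrogenase mutant. Under median-of-ratios scaling none of these 5 was called in either mutant. At the other end stood RPS22B at 0.61 and 0.79 and RPS22A at 0.30 and 0.36, none of them called on the TPM scale. By median of ratios these became 1.32 and 1.45 for RPS22B and 1.01 and 1.02 for RPS22A, and they were the members called higher. RPL30, whose protein binds and restrains splicing of its own transcript, came next at 0.27 and 0.33 and was not called. Set against each other in the late window, the mutants differed in 0 of 132 members in limma, with 0 at an unadjusted p under 0.05, and in 0.297% of all genes. The same pooled spread was used, so equal levels in the mutants are not shown.

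The size of the fall was also compared between strains, and members were called no more often than genes at large. The late minus early change was lower than in wild type for 18 of 132 members in the NADH dehydrogenase mutant, against 33.5% of all genes, and for 28 of 132 in the cox4Δ mutant, against 26.1%. By median of ratios 1 member was lower and 4 higher in the NADH dehydrogenase mutant, against 7.52% and 10.1% of all genes, and 2 were lower and 1 higher in the cox4Δ mutant, against 7.62% and 9.77%. RPL41B, with differences of -1.83 and -2.52, was among them in both mutants.

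The balance of the copies changed over the course in some pairs. Since both copies are read in the same library, their ratio does not depend on scaling. It was tested as log2 of (A + 1)/(B + 1) over all 385 duplicate gene pairs of the table, 57 of them ribosomal, and called at an adjusted p under 0.05 and a change of at least 1.5-fold. On average the larger copy stood 1.94-fold over the smaller (median over 57 pairs). The A copy was higher in all 72 libraries for 23 pairs, the B copy for 13, and 21 pairs were mixed. The most unequal pairs were RPL15, where A was 11.1-fold over B, RPL18 (9.53-fold), RPS9, where B was 6.85-fold over A, RPS14 (5.05-fold) and RPL22 (4.91-fold).

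In wild type 17 of 57 ribosomal pairs (29.8%) changed their ratio from the early to the late window. Of all duplicate pairs 59.5% did, and of the 328 pairs that are not ribosomal 64.6%. The median absolute change was 0.32 (log2) in ribosomal and 1.01 in other pairs, so ribosomal pairs moved less than most duplicates. The balance moved toward B in 12 and toward A in 5. Of the 57 pairs 10 changed in the NADH dehydrogenase mutant (4 toward A, 6 toward B), against 60.8% of all pairs and 68.3% of the others. In the cox4Δ mutant 13 of 57 did (6 toward A, 7 toward B), against 60% of all pairs and 66.5% of the others.

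RPL15 moved furthest. In wild type RPL15A had 869, 1968 and 2342 rescaled TPM early and 203, 319 and 558 late, while RPL15B stayed between 44.4 and 77.5 in both windows. The log2 ratio was 3.90, 5.22 and 5.57 early and 1.80, 2.47 and 3.04 late, a change of -2.66 (SE 0.28, limma adjusted p = 6.3e-13) with no overlap. It was -1.82 in the NADH dehydrogenase mutant and -1.68 in the cox4Δ mutant. On the TPM scale RPL15B was lower late than early in both mutants as well, though not called in the NADH dehydrogenase mutant. Unlike the ratio, the level of a single copy depends on the scaling.

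RPL9 moved by -1.98 in wild type (SE 0.21, limma adjusted p = 7.8e-13). Its log2 ratio was -1.48, 0.13 and 0.54 early and -2.29, -2.11 and -1.79 late, so the copies went from near equal levels to an excess of B. RPL14 moved by -1.60, from 1.46, 1.98 and 2.19 to -0.16, 0.38 and 0.84, and RPS22 by -1.32, from 1.52, 2.35 and 2.66 to 0.39, 1.0 and 1.32. Neither pair overlapped between windows. In the mutants RPL9 moved by -1.13 and -1.20, RPL14 by -0.82 and -1.11 and RPS22 by -1.67 and -1.97, all called (the NADH dehydrogenase mutant first).

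Of the 8 pairs with the largest change in wild type, RPS26 and RPL26 moved toward the A copy. RPS26, a protein of the small subunit where the message leaves it, went from 1.02, 1.13 and 1.77 early to 2.38, 2.51 and 3.26 late in wild type, without overlap, a change of 1.47 (SE 0.22, limma adjusted p = 3.4e-08). RPS26A went from 1432, 2880 and 3475 rescaled TPM to 824, 1070 and 1612, and RPS26B from 419, 1173 and 1651 to 98.8, 155 and 286. RPL26 moved by 1.04 (SE 0.20, adjusted p = 4.8e-06), from -1.54, -0.94 and -0.34 to -0.43, 0.11 and 0.45, where the windows overlapped. RPS26 moved by 0.95 and 0.93 in the mutants, both called, and RPL26 by 0.29 and 0.58, neither called.

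**Figure D3:**
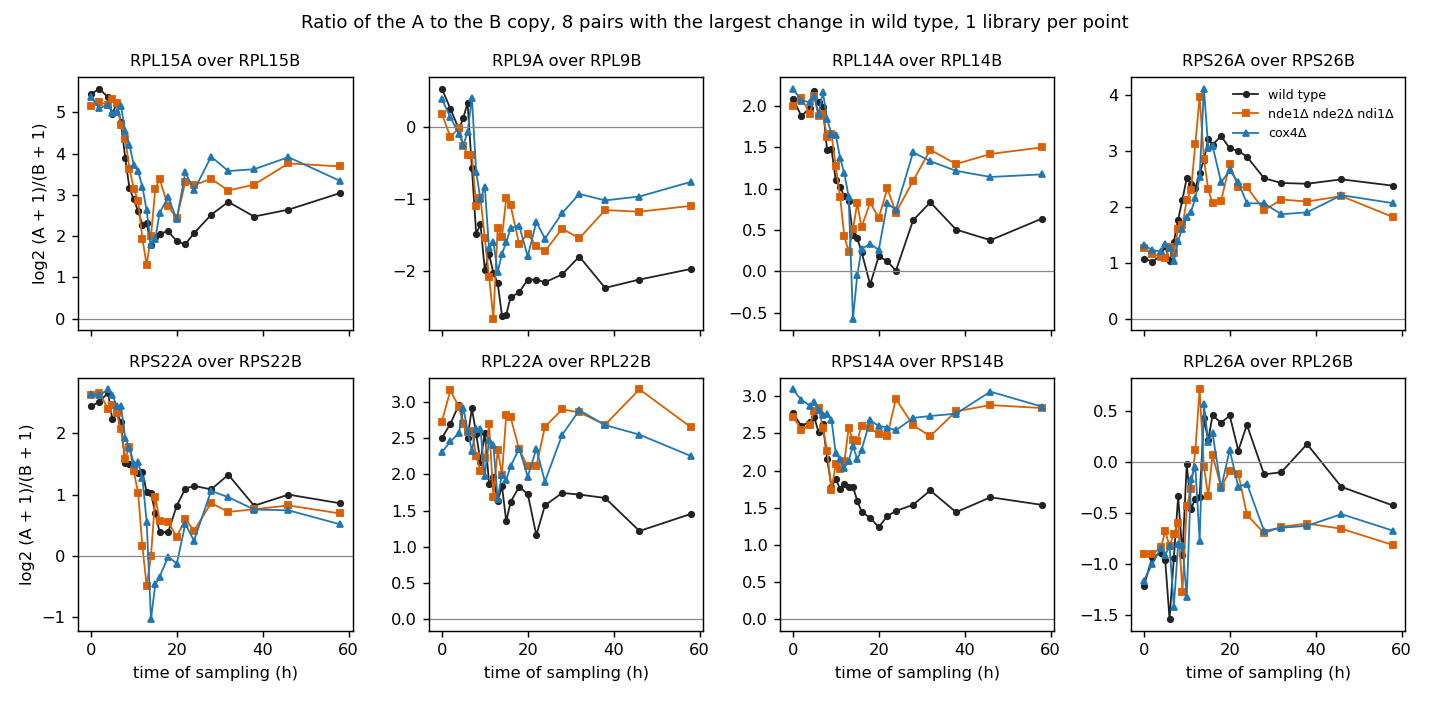
Log2 ratio of the A to the B copy (y axis) against time of sampling in h (x axis) for the 8 pairs with the largest change in wild type, 1 library per point and strain. The strains lie close early, though RPS14 is higher in the cox4Δ mutant than in wild type at each early time. At all 9 late times RPL22 and RPS14 lie higher in the mutants than in wild type. Their late means are 2.61 and 2.68 in the NADH dehydrogenase mutant, against 1.57 and 1.48 in wild type.

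RPS14 and RPL22 changed their ratio in wild type, and the change was not called in either mutant. Both are known for feedback on the B transcript, whose splicing is held back by the protein itself. The log2 ratio of RPS14 was 2.16, 2.62 and 2.77 early and 1.24, 1.46 and 1.73 late in wild type, a change of -1.10 (SE 0.10, limma adjusted p = 1.2e-14), and that of RPL22 was 2.50, 2.70 and 2.96 early and 1.16, 1.67 and 1.83 late, a change of -1.13 (SE 0.16, adjusted p = 6.3e-09). In the NADH dehydrogenase mutant the changes were 0.05 and -0.10, and in the cox4Δ mutant -0.16 and -0.15, none of them called.

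The difference between these changes was itself called. For RPS14 it was 1.15 in the NADH dehydrogenase mutant and 0.94 in the cox4Δ mutant, and for RPL22 1.03 and 0.97. The RPS14 ratio of the cox4Δ mutant already lay above wild type at each early time. It was 3.09 against 2.77 at 0 h and 2.77 against 2.16 at 8 h. On the TPM scale the late strains differed in the B copy. RPS14B had 513, 572 and 640 rescaled TPM early and 361, 382 and 476 late in wild type, but 102, 176 and 219 late in the NADH dehydrogenase mutant and 93.6, 146 and 248 in the cox4Δ mutant, under every late wild-type library. RPS14A had 857, 1145 and 1383 in late wild type, 711, 1079 and 1480 in the NADH dehydrogenase mutant and 578, 971 and 1645 in the cox4Δ mutant, and the strains overlapped. Which copy differed turned on the scaling: by median of ratios the late differences from wild type were -0.56 and -0.69 for RPS14B and 0.63 and 0.56 for RPS14A (the NADH dehydrogenase mutant first), none of them called. Within wild type it was RPS14A that fell, by 1.63 on the log2 scale, while RPS14B was not called.

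**Figure D4:**
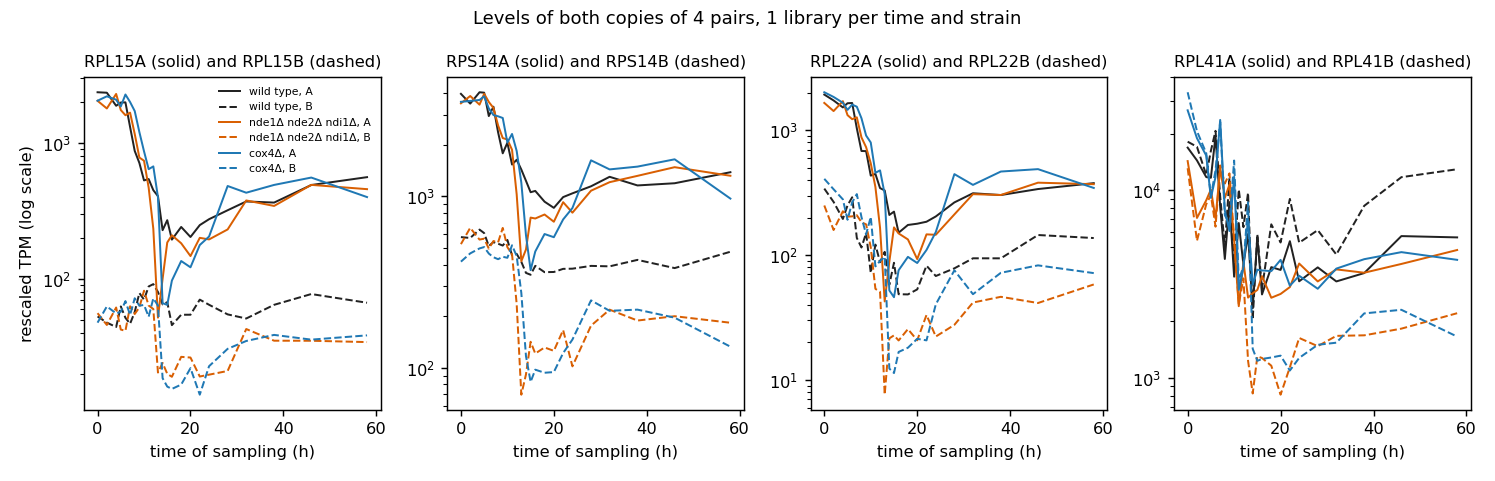
Rescaled TPM of both copies on a log axis (y axis) against time of sampling in h (x axis) for RPL15, RPS14, RPL22 and RPL41; solid lines are A, dashed lines B copies, 1 library per time and strain. The late A copies of RPS14 overlap between strains, while RPS14B and RPL41B lie lower in both mutants than in wild type.

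Set against wild type in the late window, 15 of 57 pairs differed in the NADH dehydrogenase mutant (11 toward A, 4 toward B), with 48.1% of all duplicate pairs called, and 14 in the cox4Δ mutant (11 toward A, 3 toward B), with 48.8% of all pairs. These comparisons share the wild-type libraries. In the early window 0 of 57 pairs were called in either mutant. Of all duplicate pairs 1.30% were called there in the NADH dehydrogenase mutant and 7.01% in the cox4Δ mutant. Each mutant was compared with wild type at the same 9 late times. For RPL41, RPS14, RPL22, RPL7, RPL4, RPL15, RPL9 and RPL14 the ratio was above wild type at 9 of 9 in both mutants. For RPS26 and RPL26 it was below wild type at 9 of 9 in both mutants. For RPS22 it was below at 8 of 9 in the NADH dehydrogenase mutant and at 9 of 9 in the cox4Δ mutant. These pairs were named by size of change or difference in the same libraries, so the signs are a description with no test. The late differences of the ratio from wild type were 1.19 and 1.24 for RPS14, 1.04 and 0.82 for RPL22 and 0.92 and 0.95 for RPL7. They were 0.88 and 0.83 for RPL4, 0.84 and 1.0 for RPL15 and 0.67 and 0.88 for RPL9. All of these were called in limma.

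RPL41 differed most, by 2.07 and 2.12 (SE 0.13, limma adjusted p = 1.0e-17 and 5.6e-18). Its log2 ratio in the late window was -1.21, -0.75 and -0.48 in wild type, 1.11, 1.18 and 1.78 in the NADH dehydrogenase mutant and 0.96, 1.36 and 1.70 in the cox4Δ mutant, on opposite sides of equal levels. Because the coding sequences shown above differ at a single base, the split between RPL41A and RPL41B is uncertain, as is that of RPL4, whose coding sequences are 98.9% identical. Pairs of at least 98% identity were then left out of the fit. The late difference from wild type was called in 12 of 49 ribosomal pairs in the NADH dehydrogenase mutant (8 toward A, 4 toward B). In the cox4Δ mutant it was called in 10 of 49 (7 toward A, 3 toward B). With no pair left out, 48.1% and 48.8% of all duplicate pairs were called. RPL7, a large-subunit protein with 3 coding segments in each gene, had a ratio of 1.94, 2.44 and 2.78 early and 1.26, 1.49 and 1.68 late in wild type.

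Over the course the change of ratio in a mutant differed from that of wild type in 16 of 57 pairs for each mutant, 13 toward A and 3 toward B, where 47.5% of all duplicate pairs were called for the NADH dehydrogenase mutant and 49.9% for the cox4Δ mutant. Each strain's own changes can be set side by side, since they share no library. Across 57 pairs the late minus early changes of both mutants had a Pearson r of 0.963 and a Spearman rho of 0.931, those of wild type and the NADH dehydrogenase mutant 0.671 and 0.481, and those of wild type and the cox4Δ mutant 0.672 and 0.513. These are descriptions across pairs, which share libraries and times. Set against each other in the late window the mutants differed in 0 of 57 pairs in limma, with 4 at an unadjusted p under 0.05 and 2.86% of all duplicate pairs called.

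**Figure D5:**
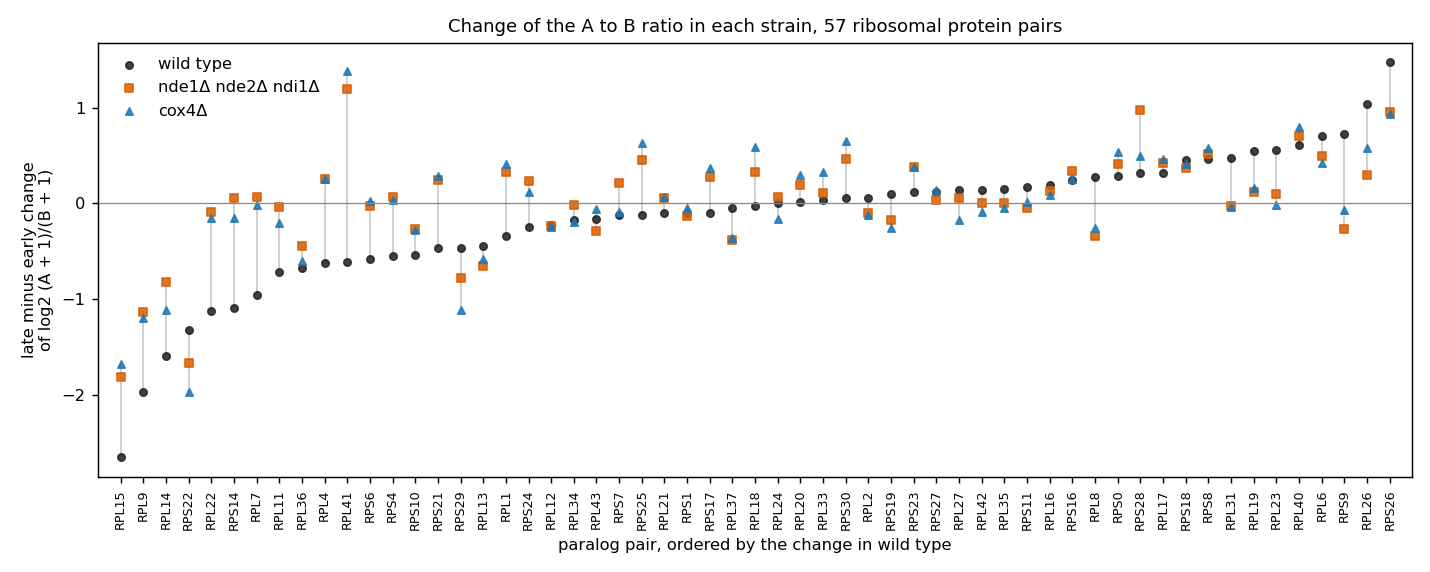
Change of the log2 A to B ratio from the early to the late window (y axis) in each strain for the 57 pairs, ordered by the change in wild type (x axis). The mutants lie close to each other, and RPL41 lies at 1.19 and 1.39 in the mutants and at -0.61 in wild type.

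Promoters are shown for RPL15 and RPL9, the pairs with the largest change in wild type. The windows run from 400 to 101 bases before the first coding base. Capitals mark matches to ACCCNNACA, a short form of the Rap1 site, and to GACGC, the core bound by Fhl1 and Ifh1, on either strand and with overlaps allowed. The places are RPL9A at chrVII:228430-228729 on the minus strand, RPL9B at chrXIV:499281-499580 on the plus strand, RPL15A at chrXII:202691-202990 on the minus strand and RPL15B at chrXIII:510449-510748 on the minus strand, read 5′ to 3′ toward the gene from R64 (sacCer3).
RPL9A: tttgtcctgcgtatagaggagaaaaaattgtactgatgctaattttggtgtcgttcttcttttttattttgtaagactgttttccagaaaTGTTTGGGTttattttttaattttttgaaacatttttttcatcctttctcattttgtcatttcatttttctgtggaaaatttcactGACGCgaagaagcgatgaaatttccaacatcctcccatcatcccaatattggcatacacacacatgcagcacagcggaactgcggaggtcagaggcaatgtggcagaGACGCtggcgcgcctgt
RPL9B: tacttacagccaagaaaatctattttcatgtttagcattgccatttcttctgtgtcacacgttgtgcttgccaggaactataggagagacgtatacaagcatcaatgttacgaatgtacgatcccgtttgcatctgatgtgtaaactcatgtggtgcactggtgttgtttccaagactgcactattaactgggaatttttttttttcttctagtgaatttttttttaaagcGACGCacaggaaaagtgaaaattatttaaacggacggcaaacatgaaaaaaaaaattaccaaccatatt
RPL15A: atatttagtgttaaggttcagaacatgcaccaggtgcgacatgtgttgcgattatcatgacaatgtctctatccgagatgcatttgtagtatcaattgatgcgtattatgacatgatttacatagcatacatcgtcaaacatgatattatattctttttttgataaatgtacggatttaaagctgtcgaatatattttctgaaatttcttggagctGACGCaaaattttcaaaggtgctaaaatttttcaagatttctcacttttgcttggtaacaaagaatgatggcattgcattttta
RPL15B: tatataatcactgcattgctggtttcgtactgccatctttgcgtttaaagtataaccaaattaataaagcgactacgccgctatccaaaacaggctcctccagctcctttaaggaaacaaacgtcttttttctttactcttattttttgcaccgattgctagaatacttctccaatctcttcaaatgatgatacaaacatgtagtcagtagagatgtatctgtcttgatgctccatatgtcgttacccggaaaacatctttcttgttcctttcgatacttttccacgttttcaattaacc

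RPL9A, which fell most, holds 1 match to ACCCNNACA and 2 to GACGC, and RPL9B 0 and 1. RPL15A holds 0 and 1, and RPL15B, which was not called lower, 0 and 0. The other pairs with a large change in wild type did not share this pattern. RPS26B and RPL14A, among the members that fell most, hold 0 and 0, as do RPS26A and RPL14B. RPL26A and RPL26B hold 1 and 0 each, and RPS14A and RPS14B 0 and 0 each. RPL22A holds 0 and 0 and RPL22B 1 and 0, while RPS22A holds 0 and 1 and RPS22B 0 and 0. A link between matches and the fall was not tested. Over all members ACCCNNACA was found in 43 of 132 windows (32.6%), against 227 of 5772 windows of all genes (3.93%), and GACGC in 49 (37.1%), against 20.4%. AGGGG, the core of the stress response element, was found in 25 (18.9%), against 24.0% of all windows. A match is a description of these letters in this window and not a shown site.

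Other genes of the translation apparatus were counted from lists written for this purpose. Their counts stand beside 14.7% of all genes called lower in late wild type, 40% in the NADH dehydrogenase mutant and 34.3% in the cox4Δ mutant. All 6 genes for the stalk proteins and Asc1, which belong to the ribosome but carry other names, fell in late wild type, with ASC1 at -2.39 and RPP2B at -2.13, and all 6 fell in each mutant. Of 11 translation elongation and termination factors tested 7 fell in wild type (TEF4 -3.07, YEF3 -2.27), 9 in the NADH dehydrogenase mutant and 8 in the cox4Δ mutant. Of 17 initiation factors 8 fell in wild type (TIF1 -2.05), 16 in the NADH dehydrogenase mutant and 15 in the cox4Δ mutant.

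Factors that build ribosomes were counted in the same way, beside the same shares of 14.7%, 40% and 34.3%. Of 36 ribosome biogenesis factors 16 fell in wild type, with NOP58 at -2.76 and NOP56 at -2.42, 32 in the NADH dehydrogenase mutant and 31 in the cox4Δ mutant. Of 9 chaperones of single ribosomal proteins that were tested 2 fell in wild type (RRB1, which binds Rpl3, at -1.65, and TSR2, which binds Rps26, at -1.24), and 7 in each mutant. STM1, which clamps idle ribosomes, fell by 1.78 in wild type, and both STM1 and LSO2, another factor of idle ribosomes, fell in each mutant. None of these lists had a member that rose in any strain from the early to the late window. Under median-of-ratios scaling the counts in wild type, the NADH dehydrogenase mutant and the cox4Δ mutant were 9, 9 and 10 for initiation factors. They were 7, 7 and 8 for elongation and termination factors, 18, 28 and 27 for biogenesis factors and 2, 5 and 7 for the chaperones. All 6 stalk and Asc1 genes fell in each strain. The shares of all genes called lower were then 15.3%, 20.5% and 20.3%.

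Mitochondrial ribosomal proteins, encoded in the nucleus for a separate ribosome, had few calls in wild type: 2 of 43 rose (MRPL24 1.23, MRPL28 1.13) and 0 fell, with a median of 0.23, where 18.4% of all genes rose and 14.7% fell. In the NADH dehydrogenase mutant 7 of 43 fell and 1 rose, against 40% and 12.2% of all genes, and in the cox4Δ mutant 9 of 43 fell and 0 rose, against 34.3% and 13.7%. That balance turned under median-of-ratios scaling, where 1 fell and 6 rose in the NADH dehydrogenase mutant, against 20.5% and 22.3% of all genes, and 2 fell and 4 rose in the cox4Δ mutant, against 20.3% and 21.8%. Of 11 regulators of the ribosomal protein genes, CRF1 rose by 2.26 (SE 0.18, limma adjusted p = 2.6e-17) and ABF1 fell by 1.13 in wild type. In the NADH dehydrogenase mutant 5 of the 11 regulators fell, with ABF1 at -2.31 and FHL1 at -2.06, against 40% of all genes. In the cox4Δ mutant 2 fell, ABF1 at -1.89 and FHL1 at -1.64, against 34.3% of all genes. CRF1 rose there by 1.08, where 13.7% of all genes rose. Under median-of-ratios scaling 2 regulators fell in each mutant, FHL1 and ABF1, against 20.5% and 20.3% of all genes. CRF1 rose in both, by 1.19 and 1.62, where 22.3% and 21.8% of all genes rose.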

How the data were processed

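The deposited values are TPM per gene, made by the authors with bcl2fastq 2.20.0.422 and Salmon 0.9.1 on build sacCer3, per the submitters' processing notes. Salmon's annotation and strand setting were not given in the sources used here, though the labels' protocols name a stranded TruSeq total RNA kit after Ribo-Zero. No deposited TPM lies under 0.1, and no member stood at that floor. TPM were rescaled over 5780 nuclear genes, and genes with a mean of at least 1 were kept, 5721 tested and 82 left out. Genes and A to B ratios were tested on log2 with a pseudocount of 1 by limma 3.58.1 in R 4.3.3, with trend and robust moderation and Benjamini-Hochberg adjustment over all genes or all duplicate pairs. Changes within a strain used 9 strain and window means (63 residual degrees of freedom), and comparisons between strains added the time point as a block (42), since the labels give matched times. Time points stand in for replicates, so p-values, all 2-sided, measure spread between times of 1 course per strain. Each gene or pair had 1 spread over all windows and strains, the steep middle window included. A fold change on this scale understates that of low genes.

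Duplicate pairs were reciprocal best protein hits of BLAST 2.17.0 with at least 50% identity over 70% of the longer protein, 396 in all and 385 with both genes tested. All 57 ribosomal pairs met this. Members were named as the 10 highest and 10 lowest differences for late wild type against early and for each mutant against late wild type. Pairs were named as the 8 with the largest change in wild type, the 5 with the largest difference of each mutant, and the 5 most unequal, and list genes as up to 4 called genes. The members, lists and windows were chosen with earlier results of these data known. Alternatives were the scaling, the pseudocount, the filter, the block, the windows and the sequence identity of pairs. Code was tested on simulated data with known changes.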

Additional observations from a re-analysis of the deposited data

Results flagged for a closer look

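Dixon's gap criterion marked no library in the summed level or in the ratio of large- to small-subunit messages, in 18 groups of 7 to 9 libraries. Chance alone marks about 1 group in 20 when values have no trend. Here the sums of a window follow the time course, as from 35.0% at 0 h to 13.3% at 8 h in wild type. That widens the range the gap is divided by, so a library that stood apart could be missed. Among the members named in the report, the late minus early change of the following was not the same in a mutant as in wild type, by the interaction term of limma (mutant minus wild type, log2). Both mutants are set against the same wild-type libraries. The first value is that of the NADH dehydrogenase mutant and the second that of the cox4Δ mutant for RPL11B (-1.07 and -1.10), RPL15B (-1.11 and -1.37), RPL19A (-1.12 and -1.27), RPL22B (-1.23 and -1.30), RPL24A (-1.10 and -1.27), RPL41B (-1.83 and -2.52), RPL4B (-1.72 and -1.64), RPL7B (-1.27 and -1.24), RPL8A (-1.25 and -1.26), RPS14B (-1.24 and -1.04), RPS25B (-1.19 and -1.38) and RPS30B (-1.22 and -1.53). For the cox4Δ mutant alone it was called for RPL31A (-1.12) and RPL39 (-1.54). On the TPM scale 33.5% of all genes had a lower change in the NADH dehydrogenase mutant and 26.1% in the cox4Δ mutant. Under median-of-ratios scaling only RPL41B, in both mutants, and RPL4B, in the cox4Δ mutant, were still called lower.

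For the ratio of A to B copies, which does not depend on scaling, the change differed in both mutants for RPL15 (0.84 and 0.98), RPL22 (1.03 and 0.97), RPL4 (0.88 and 0.88), RPL41 (1.80 and 2.00), RPL7 (1.02 and 0.94), RPL9 (0.85 and 0.78) and RPS14 (1.15 and 0.94), in the same order. It was called in the NADH dehydrogenase mutant alone for RPL14 (0.78) and RPL26 (-0.75) and in the cox4Δ mutant alone for RPS22 (-0.65). A call in a single mutant is not a tested difference between the mutants. The RPL41 and RPL4 pairs are too alike in sequence for their split to be sure.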

How the results depend on the processing

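All 37 alternative counts of called ribosomal pairs, both directions together, and all 87 values of named pairs kept their side of the threshold or stayed within 1.5 times of the count reported. Counts of members lower in the middle or late window than in the early one within a strain also stayed within 1.5 times under every alternative run. Counts between strains did not. Under median-of-ratios scaling members lower in the NADH dehydrogenase mutant than in wild type came to 0 in the middle and 1 in the late window, with 2 higher in the late window. Those lower in the late cox4Δ mutant came to 2, with 2 higher. For the difference in the late minus early change they came to 1 lower and 4 higher in the NADH dehydrogenase mutant and 2 lower and 1 higher in the cox4Δ mutant. With a pseudocount of 10 the NADH dehydrogenase mutant had 6 members lower in the middle window, and without the libraries of 13 and 14 h it had 0. With the late window started at 24 h the cox4Δ mutant had 5 members lower in the late window and 7 with a lower change. The time point served as the replicate block that pairs the strains. With no replicate block 11 members were lower in the middle window of the NADH dehydrogenase mutant, and 10 members had a lower change in each mutant. The cause of these shifts was not tested. Of 360 alternative values for named members, 26 lost and 5 gained a call, mostly under median-of-ratios scaling. Another 15 changed sign, none of them called on the TPM scale. Under median-of-ratios scaling these were, in the late NADH dehydrogenase mutant against wild type, RPS12 (0.69), RPL1A (0.66), RPS2 (0.66), RPS14A (0.63), RPL14A (0.61) and RPL7A (0.56), and in the late cox4Δ mutant RPL14A (0.62), RPS2 (0.59) and RPL7A (0.59). With the late window from 24 h they were RPS12 (0.028), RPL1A (0.066) and RPL7A (0.027) in the NADH dehydrogenase mutant and RPL14A (0.23), RPS2 (0.15) and RPL7A (0.33) in the cox4Δ mutant. None was called under these alternatives. The alternative sums without RPL41, and the middle window without 13 and 14 h, were chosen after seeing the data, and all 21 alternative sums moved by less than 1 SD. TPM give no depth, there is 1 culture course per strain, and near-identical copies limit how surely reads were split.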

Other observations

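RPS14B, RPS22A and RPL39 lie near each other on chromosome X of R64 (sacCer3) and did not move as a block. RPS14B (73787 to 74611, plus strand), RPS22A (74910 to 75302, minus strand) and RPL39 (75933 to 76474, plus strand) had late minus early log2 changes of -0.53 (SE 0.30, limma adjusted p = 0.114), -3.06 (SE 0.48) and -2.42 (SE 0.49) in wild type, where RPS14B missed the threshold. The NADH dehydrogenase mutant had -1.77, -2.72 and -3.26, and the cox4Δ mutant -1.57, -2.89 and -3.96, all called. These genes were chosen after their values were seen, and the differences between neighbours were not tested.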
